A study of Danio rerio with 2 samples.

Results

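Genes of cholesterol and fatty acid synthesis were examined in sorted kdrl:GFP+ cells of zebrafish (Danio rerio) embryos. The members described are 28 listed gene names, covering the regulators of the pathway, the mevalonate steps, the late sterol steps and the fatty acid enzymes. All 28 names matched a gene in the Ensembl name table, 25 of them as listed and the others by a human-style symbol. Those others were mvda as mvd, sqlea as sqle and cyp51 as cyp51a1. The 28 names gave 30 gene entries of the 21699 listed in either library, because the symbols sqle and acly belong to 2 genes each.

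The study crossed carriers of tsu3994, an allele of gbf1, in the Tg(kdrl:GFP) background, in which green fluorescent protein marks endothelial cells. At 44 hours post fertilization the embryos were divided by morphology, cells were sorted by flow cytometry, and RNA was sequenced from 1 library of morphologically normal siblings and 1 library of morphologically mutant embryos. The kdrl:GFP transgene and the cross are common to both libraries, and the sibling group was defined by appearance, so carriers of the allele are not separated from wild-type embryos in the labels. Neither the number of embryos nor that of sorted cells was given in the sources used here.

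Cholesterol is built from acetyl-CoA through mevalonate, isoprenoids, squalene and lanosterol, and fatty acids are built from the same acetyl-CoA by carboxylation and chain extension. Both branches are switched on by SREBP transcription factors, which are made as membrane proteins of the endoplasmic reticulum (ER). When sterols are scarce, SCAP escorts SREBP to the Golgi, where proteases release its active part, and INSIG proteins hold the complex in the ER when sterols are plentiful. GBF1, the product of the mutated gene, activates ARF GTPases on the membranes between ER and Golgi.

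The sibling library held 5657525 expected counts and the mutant library 6169373. kdrl was at 6.38 FPKM (fragments per kilobase of transcript, scaled to the size of the library) in the sibling library and 21.3 in that of mutants, whereas erythroid markers summed to 143137 and 111792 FPKM. Markers were called at or past a log2 fold of FPKM + 1 of 1 or -1, among entries above the limits stated below. Of all genes above these limits, 7.72% were called higher and 1.05% lower. Of 9 endothelial genes, all above the limits, 8 were called higher, with summed levels of 55.0 and 218 FPKM. The other, tek, was at 2.50 and 5.98 FPKM (count ratio 2.46, 1.77 to 3.47). For skeletal muscle, 8 of the 10 entries above the limits were called lower, and all 13 entries summed to 667 and 199 FPKM. None of the 7 erythroid entries above the limits and 1 of 6 epidermal genes (lower) was called, and the epidermal sums were 1125 and 969 FPKM. In FPKM 5 of these 6 epidermal genes were lower, while krt8 was higher, at 216 and 376. Liver and yolk markers, from a tissue rich in lipid synthesis, summed to 20.1 and 27.1 FPKM over 10 entries. Only 2 of these 10 were above the limits, and 1 of them was called higher. The sibling table did not list apobb.1 or a gene named afp4 (ENSDARG00000041490), and fabp10a matched no symbol. Macrophage and neutrophil markers summed to 651 and 919 FPKM, of which lyz alone gave 582 and 823. Of their 11 entries 5 were higher and 6 lower in FPKM, and 2 of the 6 above the limits were called higher. Brain markers summed to 299 and 309 FPKM, and none of the 6 was called. The part of these cell types in the results below was not tested, and in bulk RNA fewer cells of a type and less RNA per cell cannot be told apart. The targeted gene gbf1 was at 3.44 and 6.13 FPKM, which does not check the genotype because the labels do not give the lesion.

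In FPKM, 16 of the 30 entries were higher and 14 lower in the mutant library. Of all 21699 genes, 14443 were higher and 7178 lower. Of the 30 entries, 15 passed the limits for a call, set at 5 FPKM or more and 20 expected counts or more in either library. Among these 15, 1 gene, hmgcs1, was at least 2-fold higher in the mutant library (6.67%), where 7.72% of all 8641 genes that passed were. None of these 15 was at least 2-fold lower, where 1.05% of all genes that passed were. A call rests on log2((mutant FPKM + 1)/(sibling FPKM + 1)) reaching 1 or -1, a scale that understates the difference of low genes. Entries below the limits could not be called. Among them the plain FPKM ratio was 2.25 for fasn, 0.461 for mvk, 0.381 for acly (ENSDARG00000055652) and 0.231 for scd. The median log2 fold was 0.10 over all 30 entries and 0.18 over all 21699 genes. Over the 15 members that passed it was 0.15, beside 0.27 over all 8641 genes that passed. With 1 library a group no test between the conditions was possible, and every difference compares these libraries only.

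**Figure D1:**
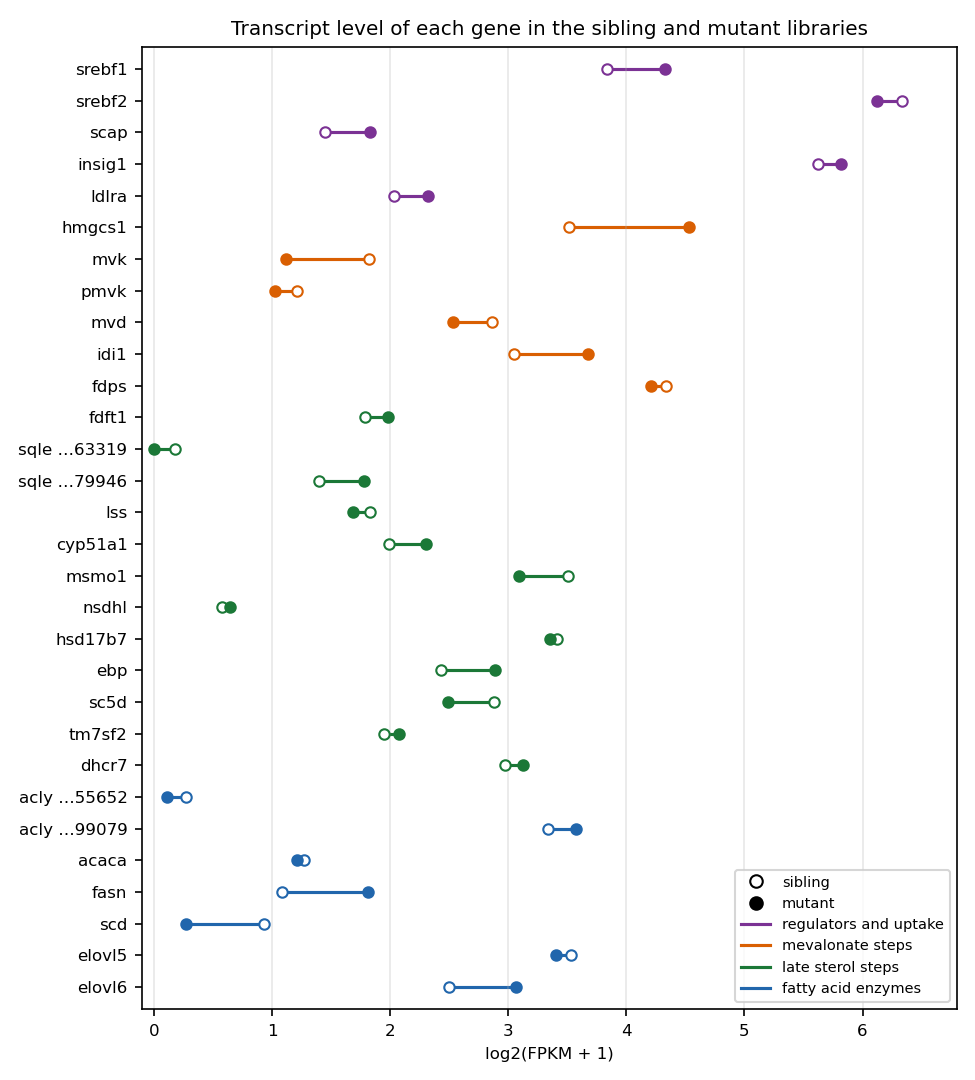
Level of each of the 30 gene entries as log2(FPKM + 1), with an open circle for the sibling and a filled circle for the mutant library, coloured by role. srebf2 and insig1 stand highest in both libraries, and most pairs of circles lie close together, with hmgcs1 the pair furthest apart. Entries that share a symbol are told apart by the end of their Ensembl ID.

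Expected counts add a measure of counting error. The count ratio below is the mutant over the sibling expected count, each divided by the sum of its library, with an exact 95% interval that covers counting error only. Of the 15 members that passed, 8 had an interval wholly above 1 (53.3%, against 46.1% of all genes), 2 wholly below 1 (13.3% against 8.99%) and 5 an interval that held 1. The median gene itself had a count ratio of 1.21. Set against that median, 2 members lay wholly above it (13.3% against 23.0% of all genes), namely srebf1 and idi1. Wholly below it lay 6 members (40.0% against 24.0%), namely srebf2, mvd, fdps, msmo1, sc5d and elovl5. No member that passed had a count ratio of 2 or more (9.58% of all genes did) or of 0.5 or less (1.31%).

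**Figure D2:**
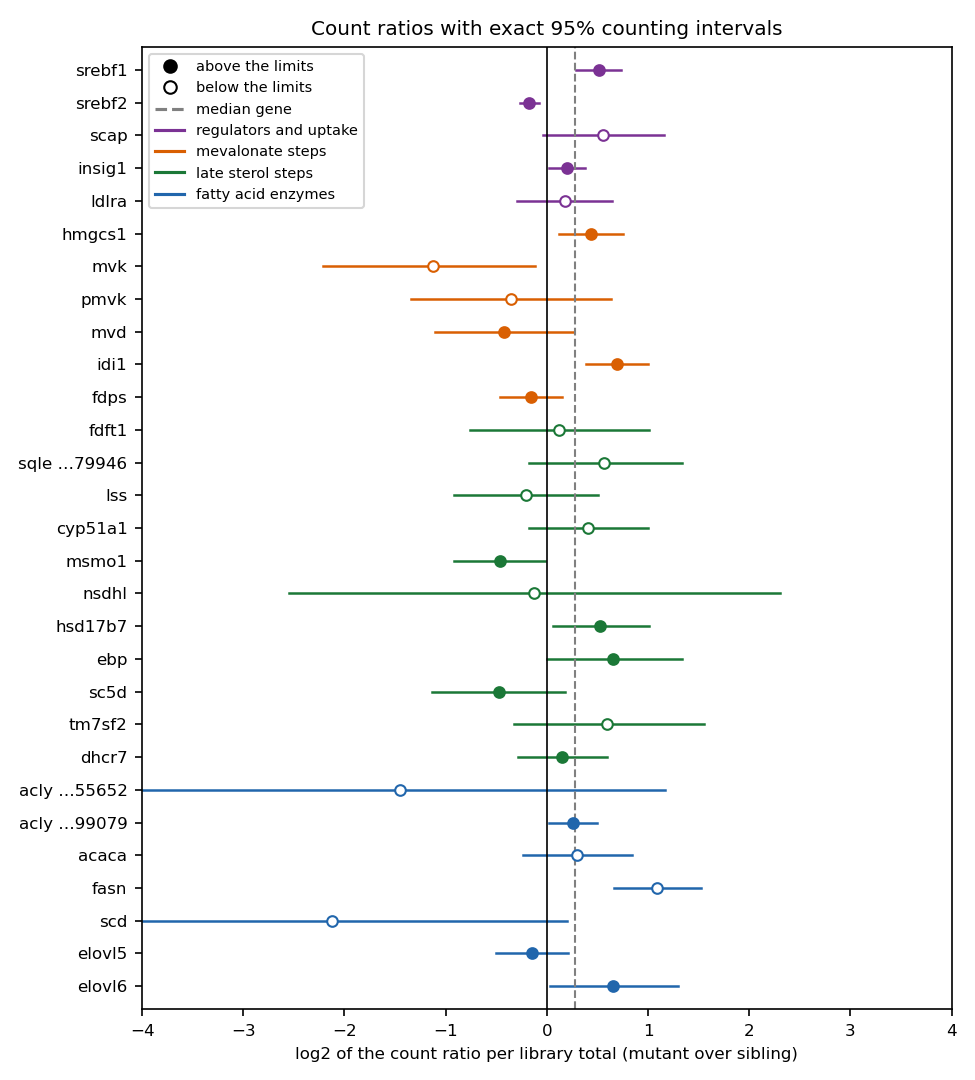
Log2 of the count ratio (mutant over sibling) with exact 95% counting intervals for the 29 entries with counts in both libraries, coloured by role. Filled points passed the limits, the solid line marks a ratio of 1 and the dashed line the median gene at 1.21. Intervals for acly (ENSDARG00000055652) and scd run past the left edge, since the mutant library held 2 counts of each.

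Among the regulators, both SREBP genes were well expressed and their difference had opposite signs. srebf2 (ENSDARG00000063438), which encodes the SREBP that mainly drives sterol genes, was the highest of all members, at 79.9 FPKM in siblings and 68.7 in mutants. Its expected counts of 1820 and 1759 gave a count ratio of 0.887 (0.830 to 0.947). srebf1 (ENSDARG00000067607), whose product acts mainly on fatty acid genes, was at 13.3 and 19.0 FPKM, from 271 and 421 counts, a count ratio of 1.42 (1.22 to 1.67). The mutant library was thus the lower for srebf2 and the higher for srebf1, under every scaling tried. Within a library the FPKM of srebf1 was 0.166 of that of srebf2 in the sibling and 0.277 in the mutant. The ratio of these count shares was 1.61 (1.36 to 1.91, counting error), a value that does not depend on how the libraries are scaled against each other. The pairs of genes compared within a library here and below were chosen after their values were seen.

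Of the genes that hold or escort SREBP, insig1 showed a small difference and scap an imprecise one. insig1 (ENSDARG00000010658), which encodes the ER anchor of the SCAP complex and is itself an SREBP target in mammals, was at 48.2 and 55.6 FPKM with 479 and 599 counts, a count ratio of 1.15 (1.02 to 1.3) whose interval held the median gene. Its log2 fold of 0.20 became a value between -0.08 and -0.07 under TMM, median-of-ratios scaling and centring. Against srebf2 within each library, the insig1 count was 1.29 times as large in the mutant as in the sibling (1.13 to 1.49). scap (ENSDARG00000018096), the sterol-sensing escort, was low at 1.73 and 2.55 FPKM, and its count ratio of 1.47 had an interval that held 1 (0.973 to 2.24). ldlra (ENSDARG00000029476), a receptor for low-density lipoprotein, stood at 3.10 and 4.01 FPKM with a count ratio of 1.13 (0.812 to 1.57). Its paralog ldlrb, one of the other lipid genes listed, was far higher, at 43.0 and 38.0 FPKM (count ratio 0.926, 0.824 to 1.04). Over the 5 regulators and uptake genes, summed FPKM was 146 in the sibling library and 149.9 in that of mutants. The count ratio of their sum was 1.003 (0.951 to 1.06), an interval wholly below the median gene at 1.21.

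The mevalonate steps ranged from the highest log2 fold of all members to the lowest. hmgcs1 (ENSDARG00000103025), which makes HMG-CoA, was at 10.4 FPKM in siblings and 22.1 in mutants, a log2 fold of 1.02 that just passed the limit. By expected counts, 143 and 211, the ratio was 1.35 (1.09 to 1.69), an interval that held the median gene. The gap between these measures came with the listed gene length, a mean over 4 transcripts, which was 2366 bases in the sibling and 1528 in the mutant table. The call for hmgcs1 was also lost under TMM, median-of-ratios and median centring, with log2 folds of 0.76, 0.74 and 0.75.

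The kinases and the decarboxylase that follow were the lowest of the mevalonate genes. mvk (ENSDARG00000004130), mevalonate kinase, was at 2.54 and 1.17 FPKM from 26 and 13 counts, a count ratio of 0.459 (0.216 to 0.925) in a gene below the limit for a call. pmvk (ENSDARG00000070798), phosphomevalonate kinase, was at 1.31 and 1.03 FPKM with a count ratio of 0.784 (0.395 to 1.55). mvd (ENSDARG00000099336), the decarboxylase listed as mvda, was at 6.26 and 4.80 FPKM with a count ratio of 0.746 (0.464 to 1.19). All 3 stood lower in the mutant library in FPKM, but the intervals of pmvk and mvd held 1.

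Isoprenoid formation went the other way at one step. idi1 (ENSDARG00000019976), the isomerase of isopentenyl diphosphate, was at 7.26 and 11.8 FPKM with 138 and 243 counts, a count ratio of 1.61 (1.3 to 2.0). fdps (ENSDARG00000040890), which makes farnesyl diphosphate, was at 19.3 and 17.5 FPKM with a count ratio of 0.897 (0.727 to 1.11). Count ratios were thus 1.35 and 1.61 for hmgcs1 and idi1, and ran from 0.459 to 0.897 for mvk, pmvk, mvd and fdps. These 6 entries had summed FPKM of 47.1 and 58.4. The count ratio of their sum was 1.16 (1.03 to 1.29), an interval that held the median gene at 1.21.

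**Figure D3:**
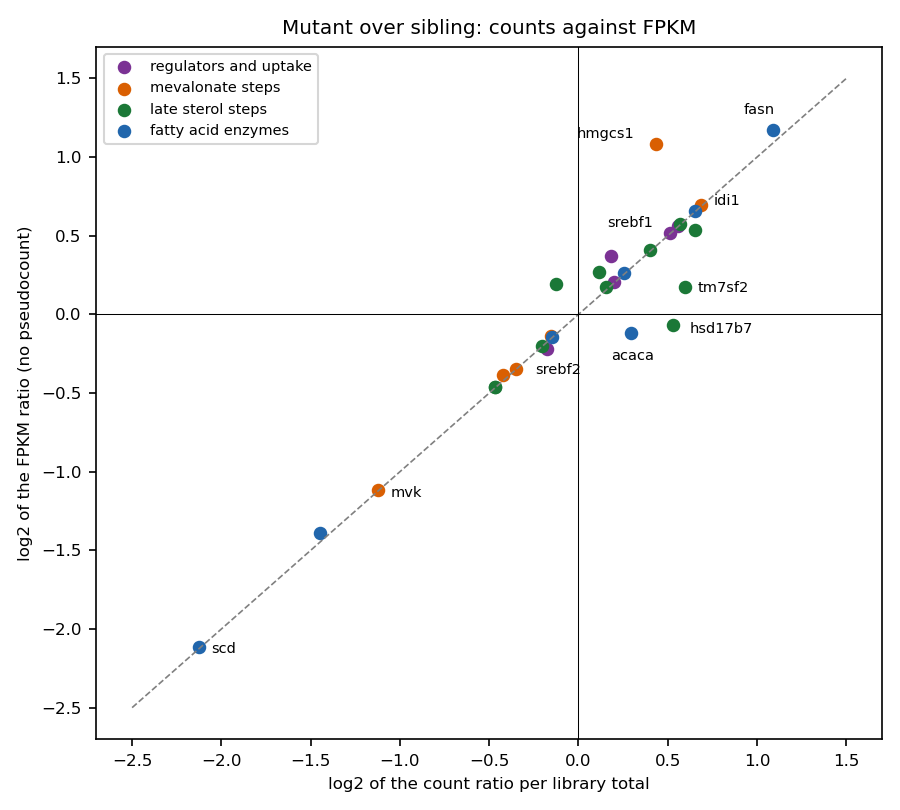
Log2 of the FPKM ratio against log2 of the count ratio (mutant over sibling, no pseudocount) for the 29 entries with counts in both libraries, coloured by role. On the dashed line both measures are equal. hmgcs1 lies above it and hsd17b7, tm7sf2 and acaca below it, the genes whose listed length differs most between the tables.

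The late sterol steps, from squalene to cholesterol, were mostly low, with median levels of 2.92 and 3.58 FPKM over 12 entries. None of them passed 2-fold. Squalene synthase, fdft1 (ENSDARG00000101062), was at 2.45 and 2.95 FPKM from 22 and 26 counts, with a count ratio of 1.08 (0.591 to 2.01). Squalene epoxidase, listed as sqlea, matched a pair of genes named sqle. ENSDARG00000079946 was at 1.63 and 2.43 FPKM (count ratio 1.48, 0.887 to 2.52), and ENSDARG00000063319 had 1 count in the sibling library and was not listed in the mutant table, too few for a ratio. lss (ENSDARG00000061274), lanosterol synthase, was at 2.55 and 2.22 FPKM (0.867, 0.531 to 1.42). All of these intervals held 1.

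Of the enzymes that trim lanosterol, cyp51a1 (ENSDARG00000042641), the demethylase listed as cyp51, was at 2.97 and 3.94 FPKM with a count ratio of 1.32 (0.882 to 2.0). msmo1 (ENSDARG00000055876), a sterol methyl oxidase, was at 10.3 and 7.51 FPKM from 95 and 75 counts. Its count ratio of 0.724 (0.528 to 0.990) made it, with srebf2, one of the 2 members that passed whose interval lay below 1. nsdhl (ENSDARG00000099315), the dehydrogenase acting with msmo1, had 4 counts in each library and a ratio of 0.917 (0.171 to 4.92). hsd17b7 (ENSDARG00000088140), the ketoreductase of the same step, gave opposite signs on the scales: 9.64 and 9.20 FPKM, but 63 and 99 counts, a count ratio of 1.44 (1.04 to 2.01). Its listed length was 1147 bases in the sibling and 1719 in the mutant table, over 3 transcripts.

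The last conversions had count ratios of 0.722 to 1.57, none past 2-fold. ebp (ENSDARG00000046098), a sterol isomerase, was at 4.40 and 6.39 FPKM with a count ratio of 1.57, whose interval started at 1.0 and ended at 2.52. sc5d (ENSDARG00000044642), a sterol desaturase, was at 6.36 and 4.61 FPKM (0.722, 0.456 to 1.13). dhcr7 (ENSDARG00000103226), a reductase of a final step, was at 6.86 and 7.73 FPKM (1.11, 0.818 to 1.51). tm7sf2 (ENSDARG00000032816), a sterol reductase of the middle of the route, was at 2.86 and 3.22 FPKM from 17 and 28 counts (1.51, 0.798 to 2.94), and its listed length was 33.6% greater in the mutant table. Over all 12 entries summed FPKM was 50.7 in the sibling library and 50.8 in that of mutants. The count ratio of the sum was 1.1 (0.971 to 1.25), an interval that held both 1 and the median gene at 1.21.

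Of the fatty acid enzymes, fasn had the interval furthest above 1. fasn (ENSDARG00000087657), fatty acid synthase, had 66 counts in the sibling library and 153 in that of mutants, a count ratio of 2.13 (1.58 to 2.88) that lay wholly above the median gene. It is a long gene, listed at 10042 and 9531 bases, so its FPKM of 1.12 and 2.52 stayed below the limit for a call. acaca (ENSDARG00000078512), acetyl-CoA carboxylase, which supplies malonyl-CoA to fasn, was at 1.42 and 1.31 FPKM with 53 and 71 counts (1.23, 0.849 to 1.79), and its listed length was 33.4% greater in the mutant table. acly, ATP citrate lyase, makes cytosolic acetyl-CoA, and ENSDARG00000099079 was at 9.10 and 10.9 FPKM from 264 and 344 counts (1.19, 1.01 to 1.41). The second acly gene, ENSDARG00000055652, had 5 and 2 counts (0.367, 0.0349 to 2.24). The fasn count relative to that of the abundant acly gene was 1.78 times as large in the mutant library (1.26 to 2.52).

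Desaturation and elongation of fatty acids were mixed. scd (ENSDARG00000033662), stearoyl-CoA desaturase, was close to the detection limit, at 0.91 and 0.21 FPKM from 8 and 2 counts, with a count ratio of 0.229 (0.0237 to 1.15). The elongases elovl5 and elovl6 had opposite signs. elovl5 (ENSDARG00000004979), which extends polyunsaturated chains, was at 10.5 and 9.56 FPKM (0.903, 0.706 to 1.16). elovl6 (ENSDARG00000004402), which extends saturated chains and is an SREBP target in mice, was at 4.66 and 7.36 FPKM from 35 and 60 counts (1.57, 1.02 to 2.46). Relative to elovl5 in the same library, elovl6 was at 0.442 in the sibling and 0.770 in the mutant on the FPKM scale, and the count proportion differed by 1.74 times (1.05 to 2.91). Summed FPKM over the 7 fatty acid entries was 28 and 32. The count ratio of the sum was 1.24 (1.11 to 1.38), an interval that held the median gene at 1.21.

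Over all entries of each role, the median log2 fold was 0.29 for regulators and uptake, -0.16 for mevalonate steps, 0.10 for late sterol steps and -0.07 for fatty acid enzymes. By counts the medians of the ratios were 1.15, 0.841, 1.1 and 1.19. Over the members that passed, 3, 4, 5 and 3 in that order, the median log2 folds were 0.20, 0.25, -0.06 and 0.24, and the median count ratio of the mevalonate steps was 1.12. The signs of the mevalonate, late sterol and fatty acid medians thus turned with the limits on low values. Under TPM the fatty acid median over all entries became 0.02, and under TMM the late sterol median became -0.09. All members spanned log2 folds of -0.71 (mvk, below the limits) to 1.02 (hmgcs1). Those that passed ran from -0.41 (msmo1) to 1.02, while the middle 90% of all genes that passed ran from -0.47 to 1.16. The order of levels was alike in both libraries, with a Spearman's rho of 0.965 across the 30 entries, which share library and gene length and are not replicates. In each library 7 entries reached 10 FPKM.

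The listed length enters FPKM but not the count ratio, which is not corrected for length. This length was the same in both tables for 15 entries and differed by more than 10% for 6 of 29: hmgcs1, hsd17b7, tm7sf2, acaca, nsdhl and ldlra. Among the 15 members that passed, this held for 2 (13.3%), against 15.8% of all genes that passed. Expected counts were whole to within 0.005 in both libraries for 20 entries. For the other 10, among them hmgcs1, idi1, srebf2, scap and ebp, some reads were divided with other genes, so their values are less certain.

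Other genes of sterol and lipid metabolism were listed in 6 groups and gave 135 entries, of which 80 passed the limits. By the rule for a call 7 of these 80 were higher in the mutant library (8.75%), near the 7.72% of all genes that passed, and none was lower (1.05% of all genes). Their median log2 fold was 0.34, beside 0.27 over all genes that passed. Centred on the median gene, the split was 4 higher and 2 lower of 80, beside 3.70% and 2.15% of all genes. Under TMM it was 4 higher and 1 lower, beside 4.09% and 2.01%. In both settings the genes named mylip (ENSDARG00000008859), sec22b (ENSDARG00000030108) and acsl4 (ENSDARG00000010752) lost the call. Against the 7.72% of all genes, the other sterol and prenyl genes had 1 of 16 higher, and SREBP processing and sterol-regulated turnover 3 of 10. Those 3 were the same mylip gene and both genes named sec22b, which act in ER-to-Golgi traffic. The groups were drawn up with earlier results of these data known, so such shares are no test of a group. Sterol uptake, transport and storage had 1 of 13, other fatty acid genes 2 of 19, and glycerolipid and sphingolipid synthesis 0 of 11 each.

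The prenyl branch held the largest difference. dhdds (ENSDARG00000039851), which extends farnesyl diphosphate to dolichol, the carrier of N-glycan precursors, was at 7.45 FPKM in siblings and 37.1 in mutants, from 51 and 276 counts, a log2 fold of 2.17 and a count ratio of 4.96 (3.67 to 6.83). nus1, which encodes the partner subunit of the same enzyme and was singled out after its values were seen, was at 8.62 and 16.1 FPKM (2.0, 1.64 to 2.44). Under every scaling tried dhdds had a log2 fold of 1.90 or more. The most abundant genes of that group were lbr, a sterol reductase of the nuclear membrane, at 119 and 98.1 FPKM (0.818, 0.769 to 0.871), faxdc2 at 49.3 and 44.3, and pggt1b, a prenyltransferase subunit, at 24.9 and 30.3.

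In the group of SREBP processing and sterol-regulated turnover, a gene named mylip (ENSDARG00000008859) was at 6.23 and 14.3 FPKM (count ratio 2.28, 1.79 to 2.93). Its human product marks the LDL receptor for degradation. A second gene named mylip (ENSDARG00000055118), below the limit for a call, was at 1.11 and 0.94 FPKM (0.846, 0.353 to 2.01). Both genes named sec22b, which encodes a membrane fusion protein of ER-to-Golgi traffic, were higher. ENSDARG00000100435 stood at 5.82 and 16.4 FPKM, and ENSDARG00000030108 at 9.88 and 21.3. The ubiquitin ligase gene syvn1 was at 18.8 and 24.2 FPKM and tmem33 at 13.1 and 15.0. The proteases that cut SREBP in the Golgi were singled out after their values were seen. mbtps1 was at 8.79 and 11.4 FPKM (1.29, 1.08 to 1.54), and mbtps2, below the limit for a call, at 2.33 and 4.92 (2.10, 1.44 to 3.11).

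In uptake, transport and storage, abca1 (the gene without a paralog letter in the name table), a cholesterol exporter, was at 5.63 and 17.5 FPKM from 273 and 1059 counts, a log2 fold of 1.48 and a count ratio of 3.56 (3.11 to 4.08). Its listed length was 14.6% greater in the mutant table, and its expected counts were not whole. Its paralog abca1b, chosen after its values were seen, was at 2.28 and 3.39 FPKM. npc2, a lysosomal sterol carrier, was at 68.7 and 70.3 FPKM, and apoeb, an apolipoprotein, at 20.3 and 17.2. The fatty acid genes past 2-fold were acyl-CoA synthetases: acsl1 at 1.41 and 5.08 FPKM (2.28, 1.52 to 3.52) and a gene named acsl4 (ENSDARG00000010752) at 4.71 and 10.9 (2.30, 1.82 to 2.93). For acsl1 the listed length was 4142 bases in the sibling and 2643 in the mutant table, and its expected counts were not whole. The most abundant of that group were hsd17b12 (14.9 and 19.98 FPKM), a gene named elovl1 (ENSDARG00000103735, 14.2 and 18.8) and a gene named slc25a1 (ENSDARG00000076381, 13.6 and 10.2), the mitochondrial citrate carrier.

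Glycerolipid genes that passed had a median log2 fold of 0.43 and sphingolipid genes of 0.48, with lpin2, a phosphatidate phosphatase, the most abundant at 52.3 and 44.5 FPKM. gpat4, an acyltransferase, was at 16.8 and 23.0 FPKM and agpat3 at 9.21 and 12.5. Of the sphingolipid genes, degs1, a ceramide desaturase, was at 19.9 and 25.7 FPKM, a gene named sptlc2 (ENSDARG00000074287) at 15.5 and 21.5, and a gene named cert1 (ENSDARG00000102372), a ceramide carrier, at 14.0 and 21.1. In these groups, 4 of 11 glycerolipid and 6 of 11 sphingolipid genes had an interval wholly above the median gene, against 23.0% of all genes. So had 4 of 10 in SREBP processing and sterol-regulated turnover and 4 of 16 other sterol and prenyl genes. The counts were 3 of 13 in sterol uptake, transport and storage and 5 of 19 among other fatty acid genes. Wholly below the median gene lay 1 glycerolipid and 0 sphingolipid genes. In SREBP processing and sterol-regulated turnover 1 lay below, and 2 of the other sterol and prenyl genes. Below it also lay 4 genes of sterol uptake, transport and storage and 5 other fatty acid genes. Over all 80, 26 lay wholly above the median gene and 13 wholly below it, where 24.0% of all genes lay below.

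**Figure D4:**
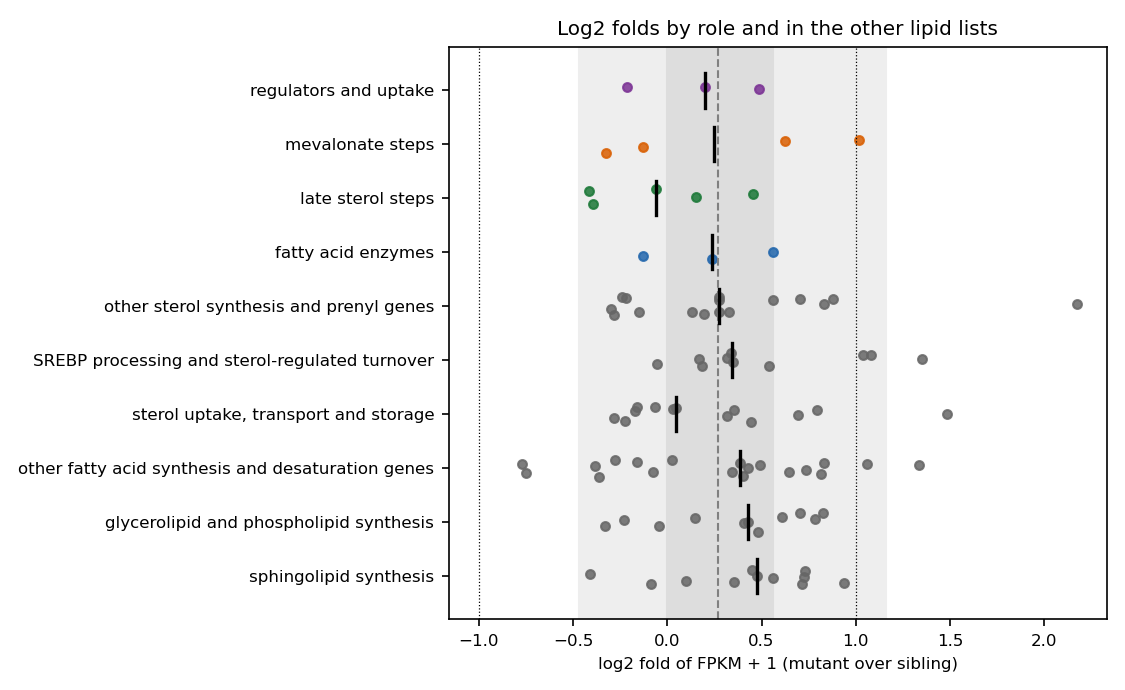
Log2 fold of FPKM + 1 (mutant over sibling) for the genes that passed the limits, by role (coloured) and in the 6 other lipid groups (grey), with a black bar at each median. The dark and pale bands hold the middle 50% and 90% of all genes, the dashed line is their median of 0.27 and the dotted lines are the limits of -1 and 1. The coloured points lie within the pale band, and dhdds (2.17) and abca1 (1.48) lie furthest right among the grey.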

How the data were processed

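Each table, deposited by the authors, covers 1 library and lists per Ensembl gene its length, its expected count and its FPKM. The submitters' processing notes name RSEM, Bowtie2, BWA and bcl2fastq 2.16, and the build GRCz10. What each tool did, which annotation release served and whether genes were filtered was not given in the sources used here. Counts are expected counts, deposited by the authors unscaled. FPKM as deposited is scaled to gene length and library size, but is not exactly the count over the listed length and the summed counts. At a given count, a longer listed length goes with a lower FPKM. The count ratio is not corrected for length, so neither measure is free of a shift between isoforms. The tables hold no value of 0, and a gene missing from 1 table was given 0 there.

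Symbols came from a table of Ensembl IDs that named 19802 of 21699 genes. Log2 folds used FPKM + 1. Exact conditional binomial 95% intervals used counts rounded to whole numbers (SciPy 1.17.1) and cover counting error only. PCR copies are not independent molecules, so the intervals can be too narrow even for that error. TMM factors came from edgeR 4.0.16. Scalings, pseudocounts (0.1 and 5) and filters on low values were varied. The calculations were run on counts simulated with counting error only, without replicate spread or a shift in length. That checks the code and cannot show how well the intervals hold for these libraries. All members reported are named, and of other lists those past 2-fold and the 3 of highest mean FPKM. Members and lists were chosen with earlier results of these data known. Of the listed names, 1 item is not reported here. No sequence or genome coordinate was used.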

Additional observations from a re-analysis of the deposited data

How the results depend on the processing

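With 1 library a group, no replicate could be left out. No paired analysis was possible because the labels give no replicate numbers and no test was made. Scaling moved the median of all genes from 0.27 by -0.26 (TMM), -0.27 (median of ratios and centring on the median gene), -0.16 (without the 10 highest genes) and 0.14 (TPM), and the members moved with it. Under each of these, 10 of the 15 members that passed stayed below the median of all genes. Each setting shifts all genes of a library alike, so this count could hardly change. On expected counts scaled to the library sum, it was 9. The sign of the log2 fold turned under at least 1 scaling for 10 of 30 entries. It turned for 6 of the 15 that passed, among them insig1, dhcr7 and the more abundant acly gene. The count of 1 higher member became 0 under TMM, median of ratios, centring, removal of the 10 highest genes, CPM (expected counts scaled to the library sum) and a pseudocount of 5. In that order of settings, the 7 higher genes of the other lists became 4, 4, 4, 4, 8 and 2. The shares of all genes called higher were 4.09%, 4.02%, 3.70%, 5.30%, 8.22% and 2.23% in the same order. The 0 lower ones became 1 under TMM and median of ratios, 2 when centred, and 1 with no filter or with an FPKM of at least 1. Of all genes, 2.01% (TMM), 2.07% (median of ratios) and 2.15% (centred) were lower. No share over all genes is given for the changed filters.

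Median log2 folds moved by more than the counting interval of the summed counts as follows. Over all members the 0.10 became -0.086 (TMM), -0.097 (median of ratios), -0.17 (centred), -0.0021 (without the 10 highest), 0.18 (TPM) and 0.16 (pseudocount 0.1). For regulators and uptake the 0.29 became 0.073, 0.063, 0.019, 0.16 and 0.41 from TMM to TPM, 0.20 in CPM and 0.17 with a pseudocount of 5. For mevalonate steps the -0.16 became -0.36 (TMM), -0.37 (median of ratios) and -0.43 (centred). Late sterol steps moved to -0.086 (TMM), -0.097 (median of ratios) and -0.17 (centred), and fatty acid enzymes to -0.34 (centred) and 0.25 (CPM). Of 240 single values of members under the alternatives, 223 stayed within their counting interval and 17 did not. The only called member, hmgcs1, kept its sign, whereas 10 of the 30 entries turned sign under at least 1 scaling. Depth limits the genes under 5 FPKM in both libraries, 15 of the 30 entries, where intervals often span 2-fold or more.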
